A study of Mus musculus with 12 samples.

Results

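The response to mechanical ventilation that wild type and knockout lungs had in common was followed across all 12 arrays of the series, 6 with VILI in their titles against 6 with SB. The members of the comparison were chosen by sample title alone, and the genotype entered the model as a factor. Gene expression was measured in whole mouse lung on Affymetrix arrays, with animals aged 8 to 12 weeks. VILI stands for ventilator-induced lung injury, here 4 hours at a tidal volume of 30 ml/kg and 65 breaths/min. SB is not spelled out, and the study design calls the matching wild type animals its control group.

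The 4 groups of 3 arrays were wild type SB, wild type VILI, GADD45-/- SB and GADD45-/- VILI, where the series title names the targeted gene as Gadd45a. The labels number the arrays of a group as replicates and do not say what a replicate number stands for. Gadd45a encodes a small stress-inducible nuclear protein. The sources used here do not give the strain, the sex, how the allele was made or whether SB animals were anaesthetised. In the analysed values Gadd45a read 4.58 to 6.15 on the 6 knockout arrays and 8.62 to 10.33 on the 6 wild type arrays (log2), so the labels and the targeted gene went together. Genes that define lung were high on every array, with a mean over 18 type II epithelial markers of 12.0 to 12.5.

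A large tidal volume stretches the alveolar wall beyond its normal range. Stretched endothelium and epithelium are known to release chemokines that recruit neutrophils, to induce immediate early genes, and to lose barrier function. Much less is usually said of what goes down in such lungs, where capillary endothelium, alveolar epithelium and airway cells keep up programmes of vessel maintenance, development and ciliary movement.

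Over both genotypes, 1958 of 10996 genes tested differed between VILI and SB, 17.8% of them. Called here means an adjusted p under 0.05 in limma's moderated test with Benjamini-Hochberg adjustment over all 10996 genes. In the fit reported here 1032 genes were lower (9.39% of those tested) and 926 were higher (8.42%), but which direction had more depended on the setting. With quantile normalization of the arrays 1389 were lower and 806 higher (36.7% higher in place of 47.3%). Without the filter on low values 847 were lower and 1046 higher (55.3%), and with every kept probe set tested 1346 were lower and 1767 higher. Leaving out 1 array at a time moved the total by more than 1.5 times in 4 of 12 fits, to 1227 genes without wild type SB 3, 1291 without wild type VILI 1, 1128 without wild type VILI 2 and 1206 without knockout VILI 2. P-values here set each change against the spread between arrays of the same group, pooled over the 4 groups and moderated by limma.

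Many genes were called only with both genotypes in 1 contrast. With the spread estimated over all 12 arrays, 290 genes were called within wild type (2.64% of those tested), 149 higher (1.36%) and 141 lower (1.28%). Within knockout 491 were called (4.47%), 304 higher (2.76%) and 187 lower (1.7%). These counts rest on the same arrays as the common contrast. Of the 1958 common calls, 124 were also called in wild type only, 322 in knockout only, 164 in each genotype, and 1348 in neither. Those 1348 genes, 12.3% of those tested, are termed moderate changes below, or said to need both genotypes. The terms hold for the pooled spread and the thresholds of this fit. Wild type arrays alone, with their own spread, called 440 of the 1958. Of the moderate changes, 763 were falls (6.94% of those tested) and 585 were rises (5.32%). Without wild type SB 3 the counts were 477 falls and 348 rises, without wild type VILI 2 they were 463 and 366, and without knockout VILI 2 the falls numbered 463. With array weights 565 falls and 445 rises, of 3174 calls, needed both genotypes, a smaller share of the calls.

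**Figure D1:**
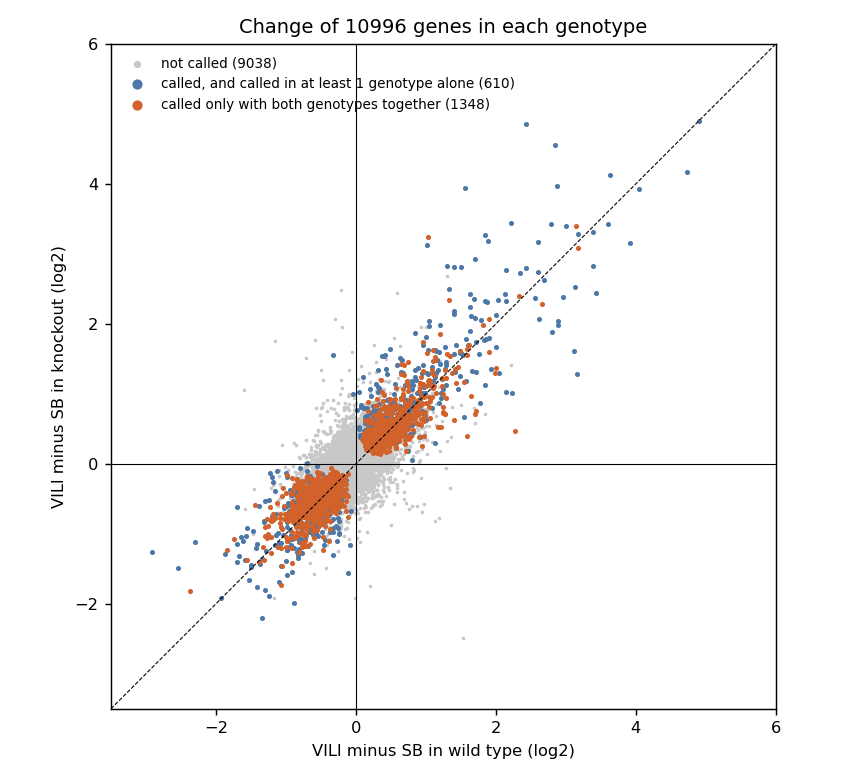
Difference between VILI and SB (log2) in wild type on the horizontal axis and in knockout on the vertical axis, 1 point per gene; the dashed line marks equal change. The 1348 genes called only with both genotypes together (orange) lie in the 2 quadrants of equal sign, a place that their definition all but fixes, and 3 of the 610 genes also called in a genotype alone (blue) lie outside these quadrants.

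These changes were modest in size. The median moderate fall was -0.48 and the median moderate rise 0.48 on the log2 scale, which is 1.39-fold in either direction. Of the 763 falls, 422 were smaller than 0.5 in size, 313 lay between 0.5 and 1, 27 between 1 and 2, and 1 was larger than 2. Of the 585 rises, 313 were under 0.5, 209 between 0.5 and 1, 58 between 1 and 2, and 5 above 2. The changes called in a genotype alone were larger among rises, with 47 of 341 above 2, than among falls, with 2 of 269 beyond that size (Dbp and Mycl). The 5 moderate rises above 2 were Apold1, Ifitm6, Atf3, Nfil3 and Doc2b, and the fall was Ankrd63. Doc2b (2.14) lost its call in 10 of the 12 fits without 1 array (adjusted p up to 0.0826 without wild type SB 2). Ankrd63 read 4.91, 7.18 and 7.82 in SB (lowest, median, highest) and 4.21, 4.26 and 4.93 in VILI and fell by 2.09 (SE 0.51, adjusted p = 0.0183). Its levels overlapped because SB array 2 of each genotype, at 4.91 and 4.92, lay among the VILI arrays. Both genes had levels below the array medians, so their sizes are approximate, and Ankrd63, Doc2b and Mycl were named after their values were seen. The median standard error (SE) of a change was 0.124 over both genotypes and 0.176 within 1 genotype.

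The 1348 moderate genes had the same sign in both genotypes, which their definition all but fixes, since a gene called over both genotypes with opposite signs would need 1 genotype large enough to be called itself. Each genotype alone reached an unadjusted p under 0.05 for 758 of them (56.2%). Their VILI arrays lay wholly apart from their SB arrays over all 12 arrays in 406 (30.1%): 228 falls and 178 rises. Over all genes tested, the 6 VILI arrays lay wholly above the 6 SB arrays in 4.26% and wholly below them in 4.09%. Since the members were called on these arrays, their share is a description only. The test of the difference between the genotypes' responses called 0 genes with limma, and 288 had an unadjusted p under 0.05, where 5% of those tested is 550. Leaving out 1 array gave 148 to 767 such genes (148 without wild type VILI 1, 181 without wild type VILI 2, 527 without wild type VILI 3, 767 without knockout SB 3). Among the other common calls, 3 had opposite signs in the genotypes: Calml4 (-0.70 in wild type, 0.01 in knockout), Gclm (-0.04 and 1.0) and Lrmda (-0.33 and 1.56), each with an adjusted interaction p of 1. Gclm helps to make glutathione. These 3 were looked up after their values were seen, and each lost its common call in 8 or 9 of the 12 fits without 1 array (adjusted p up to 0.106 for Calml4 and 0.0803 for Gclm, without wild type VILI 2, and 0.0975 for Lrmda, without wild type SB 3).

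The 15 largest moderate rises and the 15 largest moderate falls described next are those whose VILI and SB arrays did not overlap within either genotype, so larger changes such as Nfil3, Doc2b and Ankrd63 are not among them. Apold1, an early response gene of endothelium, read 3.67 (lowest), 4.39 (median) and 7.84 (highest) on the SB arrays and 8.03, 8.52 and 9.10 on the VILI arrays. The groups did not overlap, but SB array 2 of each genotype, at 7.84 and 7.83, lay far above the other 4 SB arrays. Apold1 rose by 3.28 (SE 0.79, limma adjusted p = 0.0176), 9.69-fold, an approximate size because most of its SB levels lay near or below the array medians of 4.36 to 4.58. Ifitm6, an interferon-inducible membrane protein gene of myeloid cells, read 3.99, 5.48 and 6.19 in SB and 7.34, 8.06 and 10.32 in VILI. It rose by 3.13 (SE 0.57, adjusted p = 0.00508), with every VILI array above every SB array.

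Atf3, a stress-induced transcription factor, read 5.76, 6.46 and 9.26 in SB and 9.13, 9.55 and 10.01 in VILI. The groups overlapped by a single array, again wild type SB 2, and the rise was 2.47 (SE 0.55, adjusted p = 0.0125). The same 2 SB arrays were the highest of their genotype for 6 of the 15 largest moderate rises and for 26.7% of all 585, against 18.2% of all genes tested. With both of those arrays left out, 1573 genes were called (785 higher, 788 lower), of which 550 rises and 618 falls needed both genotypes. That setting was added after the pattern was seen.

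Matrix proteins and proteases were also among the 15 rises. Ccn1, a matrix protein induced by stretch and serum, rose by 1.90 (SE 0.39, adjusted p = 0.00941) and Thbs1, the matrix protein thrombospondin 1, by 1.76 (SE 0.37, adjusted p = 0.00959). Ccn1 read 7.67, 10.15 and 11.18 in SB and 10.90, 11.86 and 12.44 in VILI, so the arrays overlapped between genotypes though not within one. Prss22, an airway serine protease, rose by 1.99 from SB levels below the array medians, and Mmp19, a metalloproteinase, by 1.39. Samsn1, an adaptor of blood cells (1.66), Rsad2, an interferon-induced antiviral enzyme (1.36), Arg2, the mitochondrial arginase (1.31), and Pmvk, a kinase of the mevalonate pathway (1.55), were in the same set. Their adjusted p lay between 0.00698 and 0.0165. Padi4 (1.31) and Fpr2 (1.29), which modify histones and sense formyl peptides in neutrophils, Mirt1 (1.34) and Gm13889 (1.25) completed the 15. Mirt1 lost its call in 3 of the 12 fits without 1 array (adjusted p up to 0.0601) and Fpr2 in 4 (up to 0.0677), each worst without wild type VILI 2.

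Among the 15 falls, Atoh8, a helix-loop-helix factor of endothelium, read 4.46, 5.18 and 7.03 in SB and 3.54, 3.84 and 4.14 in VILI. It fell by 1.53 (SE 0.34, adjusted p = 0.0129), and although no VILI array reached the lowest SB array, its VILI levels lay below the array medians, so the size is approximate. Sizes are approximate for the same reason in Zfp467 (-1.47), the adhesion protein gene Amigo2 (-1.34), the matrix gene Tnn (-1.25), the Wnt coactivator gene Bcl9l (-1.25), the glycosyltransferase gene Mgat3 (-1.13) and the homeobox gene Six5 (-1.06). Fgfr4, a fibroblast growth factor receptor gene, read 6.50, 7.35 and 8.41 in SB and 5.72, 6.20 and 6.43 in VILI, without overlap. It fell by 1.26 (SE 0.28, adjusted p = 0.0129).

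Mmp11, a stromal metalloproteinase gene, read 6.69, 7.14 and 7.72 in SB and 4.88, 5.92 and 6.47 in VILI. It fell by 1.40 (SE 0.27, adjusted p = 0.00758), with equal sizes in the genotypes (-1.39 and -1.40). The AMPK-related kinase gene Nuak1 fell by 1.17, and Tnfsf10, which encodes the death ligand TRAIL, by 1.05, also without overlap between VILI and SB. 2610528J11Rik fell by 1.02 (SE 0.19, adjusted p = 0.00622). Samd5 (-1.16), Plekhg5 (-1.16) and Sox13 (-1.14) completed the 15. Calls were lost without some single arrays for Bcl9l (3 of 12 fits, adjusted p up to 0.0547 without knockout VILI 2), Samd5 (1, 0.0508 without wild type VILI 2), Plekhg5 (3, up to 0.0633 without wild type VILI 2) and Sox13 (8, up to 0.0838 without wild type VILI 1). Sox13 rested in part on knockout SB 3, which read 9.48 against 7.20 to 8.04 on the other SB arrays.

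**Figure D2:**
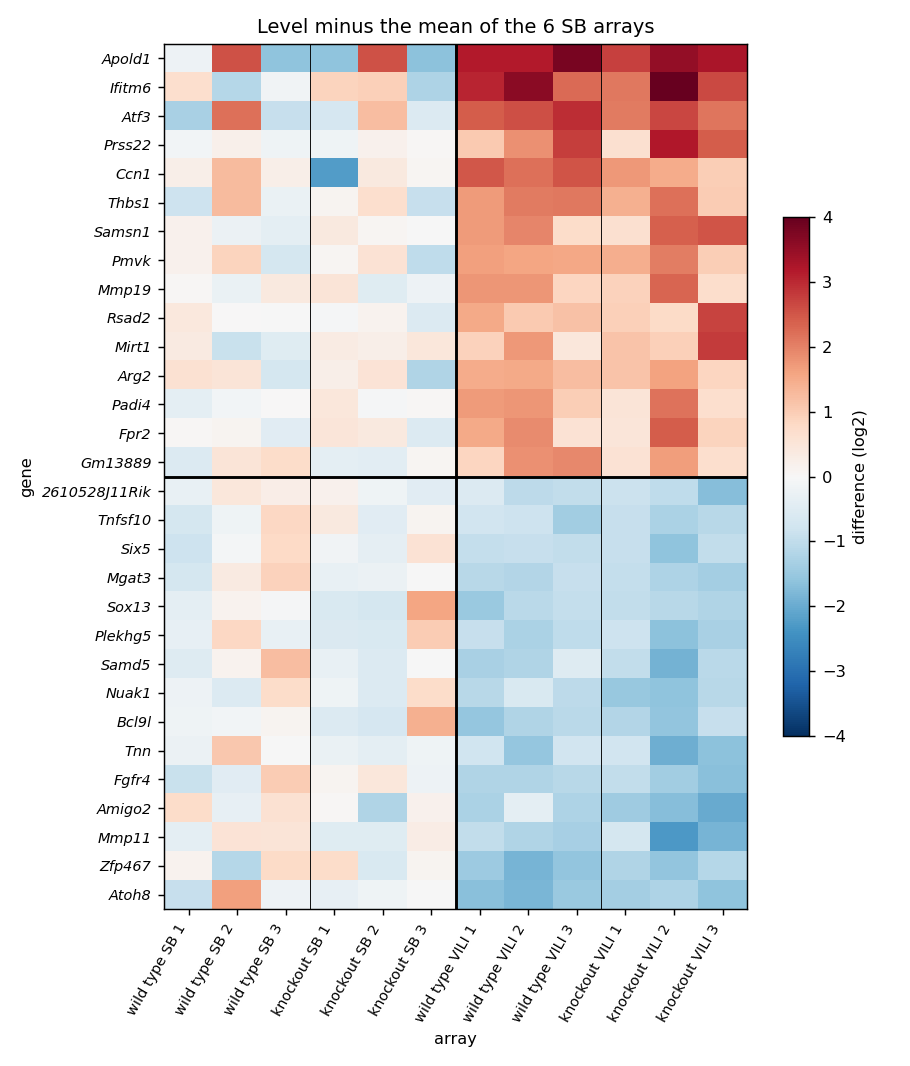
Level of each gene on each array minus its mean over the 6 SB arrays (log2; red above, blue below), for the 15 largest rises and the 15 largest falls called only with both genotypes together whose VILI and SB arrays do not overlap within either genotype; the thick vertical line separates SB from VILI arrays. SB array 2 of both genotypes is red for Apold1 and Atf3, and knockout SB 3 is red for Sox13.

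The 8 smallest p-values in each direction of the common contrast were taken by rule. S100a8 and S100a9, the calprotectin subunits, rose by 2.83 (SE 0.18) and 3.10 (SE 0.20), and Smad6, an intracellular inhibitor of BMP signalling, fell by 1.50 (SE 0.10), all at adjusted p = 2.6e-05. Smad6 read 12.00, 12.17 and 12.32 in SB and 10.28, 10.66 and 11.12 in VILI, a gap of more than the range within either group. The glucose transporter gene Slc2a3 (2.19), the neutrophil cystatin gene Stfa2l1 (3.23), the Schlafen gene Slfn4 (3.54), the lectin gene Clec4d (3.35), and the chemokine system genes Ccr1 (2.68) and Cxcl1 (2.76) made up the other rises. The value for Cxcl1 averages unlike sizes, 1.57 in wild type and 3.94 in knockout. Its interaction had an unadjusted limma p of 0.000751 and was not called after adjustment. Beside Smad6, the falls were Sox17 (-1.16), Ciart (-1.58), Lrrc75a (-1.48), the Wnt pathway gene Dixdc1 (-1.36), the heat shock family gene Hspa12a (-0.94), the growth factor gene Fgf7 (-0.85) and the cell cycle inhibitor gene Cdkn2c (-1.15). Each of these 16 genes was called in each of the 12 fits without 1 array.

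Transcripts were then described by role, in 70 lists of cell type markers and pathways. Counts are given as members called among members measured, to be read against 8.42% higher and 9.39% lower over all genes, and medians against -0.03 over all genes. The lists overlap in some members, and they were chosen with earlier results of these data known, so their shares are a description only. In whole lung, fewer cells of a type and less RNA per cell cannot be told apart.

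**Figure D3:**
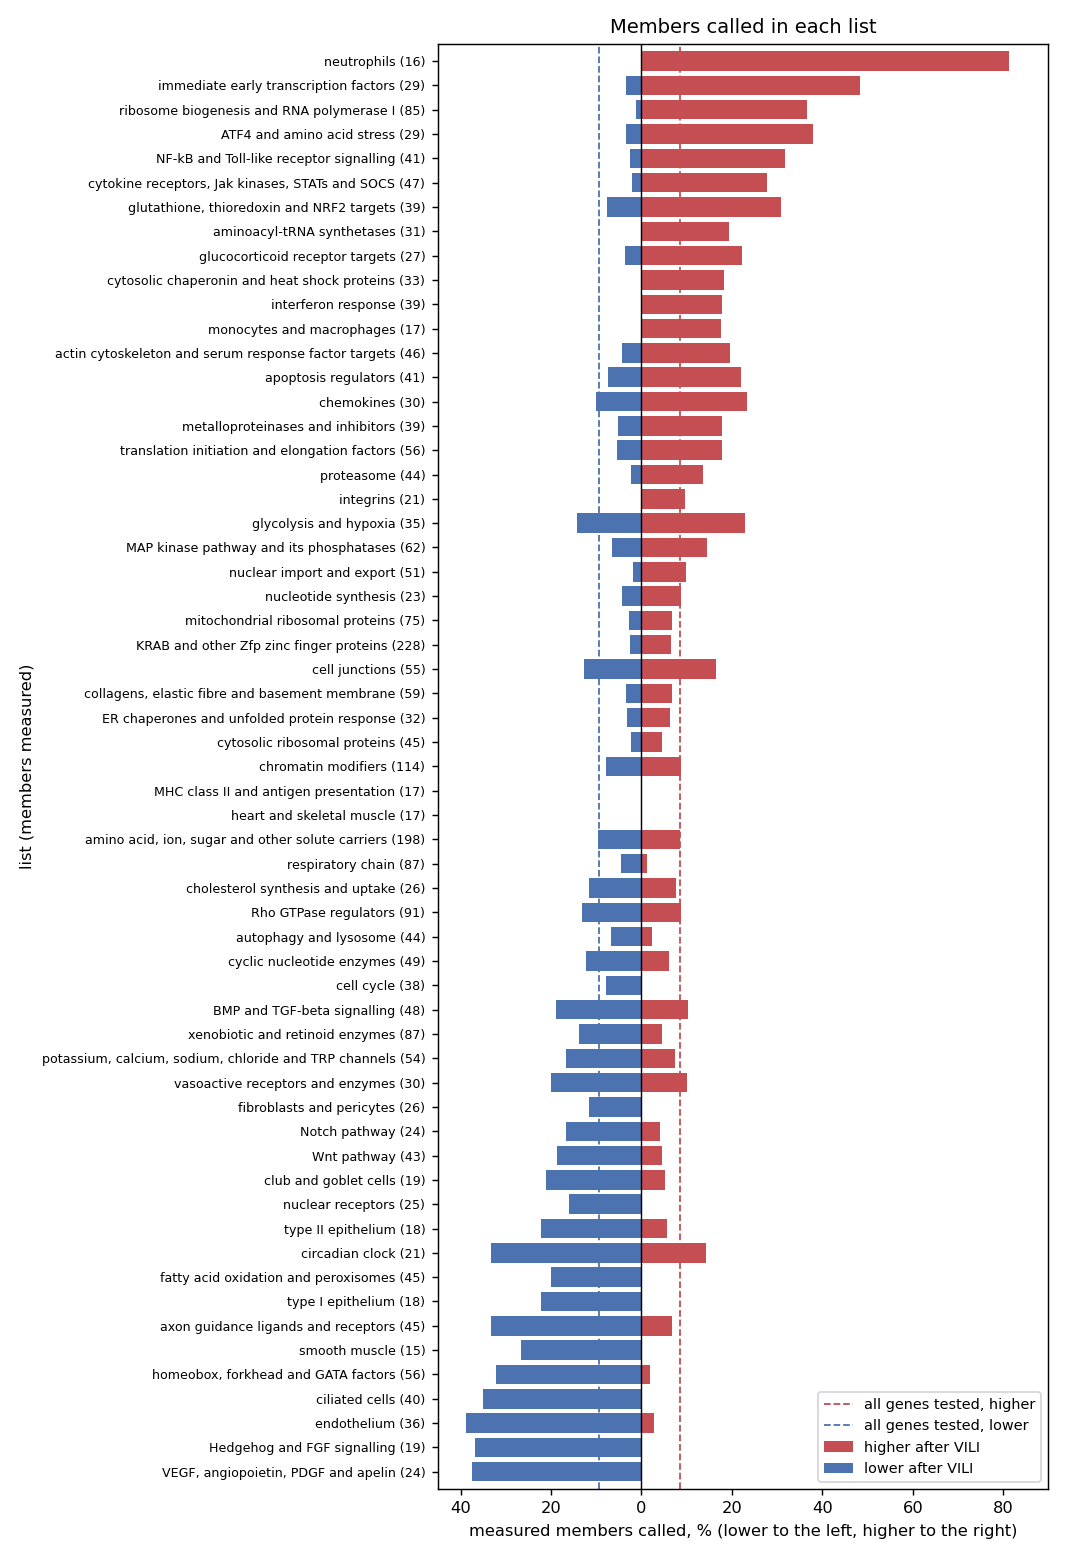
Percentage of measured members called higher (red, to the right) and lower (blue, to the left) after VILI in each list with at least 15 measured members, given in parentheses; dashed lines mark the same percentages over all 10996 genes. Neutrophil, immediate early, ribosome biogenesis and ATF4 lists extend furthest to the right, and VEGF, FGF, endothelial and ciliated cell lists furthest to the left.

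Ribosome biogenesis had the largest number of members called higher of the 70 lists, although more of its members were not called. These genes encode RNA polymerase I subunits and the nucleolar factors that cut, modify and fold ribosomal RNA. Of 85 measured members 31 rose (36.5%), 1 fell and 53 were not called, and 15 of the rises were moderate changes, with a list median of 0.33 (0.19 in wild type, 0.42 in knockout). Nop58, a core protein of box C/D particles, read 7.22, 7.43 and 7.93 in SB and 8.08, 8.51 and 8.96 in VILI. It rose by 1.0 (SE 0.17, adjusted p = 0.00434), 2.0-fold, and no array overlapped. Tsr1, a small subunit maturation factor (0.91, SE 0.11), Heatr1, a factor of the small subunit processome (0.86, SE 0.14), and Rrp12 (0.83, SE 0.16) rose too. Tsr1 and Heatr1 were separate between all VILI and SB arrays, and Rrp12 overlapped. Among moderate rises chosen after their values were seen, Gnl3, the nucleolar protein nucleostemin, rose by 0.65 and Ddx21, a nucleolar helicase, by 0.58. Polr1b, a subunit of RNA polymerase I, rose by 0.51 but lost its call in 9 of 12 fits without 1 array (adjusted p up to 0.100 without wild type VILI 2). Nop10, a small protein of box H/ACA particles, was the member that fell, by 0.24. It lost its call in 8 such fits (up to 0.0755 without wild type VILI 2), and its other probe set was at 0.00.

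The proteins of the finished ribosome did not share that pattern: of 45 measured cytosolic ribosomal protein genes 2 were higher (4.44%) and 1 lower (2.22%), below the shares over all genes. Calls were lost in the fits without 1 array for Rpl7l1 (0.37; 1 fit, 0.0545 without wild type VILI 2), Rps9 (0.28; 10 fits, up to 0.0977 without wild type VILI 3) and Rpl38 (-0.20; 10 fits, up to 0.104 without wild type VILI 1). Between these stood the other parts of the translation machinery. Of 56 initiation and elongation factors 10 rose and 3 fell, led by the initiation factor gene Eif1a (0.92), Eef1e1, a scaffold protein of the synthetase complex (0.68), and the cap-binding Eif4e2 (0.65). With the median over each gene's probe sets, 6 rose. Those lower were Eef2k, the kinase that halts elongation (-0.62), and the abundant Eif4a2 (-0.28) and Eef1a1 (-0.19), the last 2 named after their values were seen. Of 31 aminoacyl-tRNA synthetases 6 rose and 0 fell. Aars (0.50), Gars (0.45) and Tars (0.38), which charge alanine, glycine and threonine tRNAs, kept their calls in all 12 fits without 1 array, and Rars (0.51) lost its own in 8 (up to 0.0782 without wild type VILI 2). The count of 6 was 3 without wild type SB 3, wild type VILI 2, knockout VILI 2 or knockout VILI 3.

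ATF4 and amino acid stress genes gave a share of rises close to that of ribosome biogenesis. ATF4 is a transcription factor made when translation initiation is restrained, and it induces amino acid transporters and synthetic enzymes. Of 29 measured list members 11 rose (37.9%), 1 fell and 17 were not called. The list median was 0.29, 0.11 in wild type and 0.58 in knockout, a difference that was not tested. Slc7a11, the cystine transporter, read 3.88, 4.79 and 5.14 in SB and 6.51, 7.44 and 8.80 in VILI, wholly apart. It rose by 2.83 (SE 0.33, adjusted p = 0.000617), and as its SB levels lay near the array medians the 7.10-fold size is approximate. The mitochondrial folate enzyme gene Mthfd2 (2.09) and the serine synthesis gene Psat1 (1.36) rose without overlap, and Nupr1, a small stress protein gene, by 0.78. Atf4 itself, a moderate change named after its values were seen, rose by 0.78 (SE 0.18, adjusted p = 0.0153): SB arrays read 10.64 to 11.64 and VILI arrays 11.68 to 12.34. Asns, asparagine synthetase, rose by 0.63. Ddit4, an inhibitor of mTOR signalling, was the member that fell (-0.56, SE 0.12, adjusted p = 0.0118). Asns and Ddit4 were also named after their values were seen.

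The promoters of these genes are shown because 4 of the 10 called list members with a sequence window held the binding motif of C/EBP and ATF heterodimers, TGATGNAA on either strand, within 250 bases before the start. The motif was in 1.96% of the windows of all 8907 tested genes that have one, in 3.69% of those that rose and in 1.80% of those that fell. The sequences are RefSeq, build GRCm38.p6, on the strand of the gene, with the motif in capitals and the last base adjoining the transcription start. Slc7a11 (chr3:50443614-50443693, minus strand) carried it on both strands, Atf3 (chr1:191183334-191183463, minus) and Nupr1 (chr7:126625471-126625600, minus) on the reverse strand, and Asns (chr6:7693210-7693269, minus) on the forward strand. The list was chosen for ATF4 and amino acid stress, so a high share may follow from its membership alone. List members that were not called were not counted. A match describes the letters and does not show binding.
Slc7a11: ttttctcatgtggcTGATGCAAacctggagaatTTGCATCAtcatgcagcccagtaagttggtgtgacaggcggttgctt
Atf3: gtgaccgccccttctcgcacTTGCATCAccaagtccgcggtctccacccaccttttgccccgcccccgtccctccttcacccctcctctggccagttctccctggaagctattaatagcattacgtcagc
Nupr1: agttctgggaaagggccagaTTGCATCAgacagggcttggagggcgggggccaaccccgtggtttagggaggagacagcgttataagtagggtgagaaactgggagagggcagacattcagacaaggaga
Asns: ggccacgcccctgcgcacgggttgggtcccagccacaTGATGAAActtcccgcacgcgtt

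Across all called genes, other motifs in the same windows also differed in share between rises and falls. The cyclic AMP response element TGACGTCA was in 4.61% of the windows of genes that rose, 1.08% of those that fell and 2.65% of all. The AP-1 site TGANTCA was in 6.59%, 3.12% and 4.22%, the STAT site TTCNNNGAA in 8.96%, 5.16% and 5.84%, and the NF-kB site in 2.37%, 1.32% and 1.31%. The E-box CACGTG was in near equal shares, 8.17%, 8.52% and 8.47%. The median GC content was 59.6% in windows of rises, 61.2% in those of falls and 60% in all. No test was made of these shares.

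Immediate early and inflammatory signalling genes held moderate members beside the well known large ones. Of 29 measured immediate early genes 14 rose and 1 fell, and 8 of the rises were moderate. Fosl1 (3.20), Egr1 (2.62) and Egr3 (2.54) led the list, Fosl1 and Egr3 from SB levels below the array medians, and Myc rose by 2.46 (SE 0.26, adjusted p = 0.000412). Egr1 read 8.46, 8.94 and 11.04 in SB and 11.46, 11.88 and 12.80 in VILI, with no overlap. Klf2, a flow-sensitive factor of endothelium, was the member that fell: it read 11.58, 12.23 and 12.73 in SB and 10.30, 10.69 and 11.08 in VILI. Its fall of 1.48 (SE 0.16, adjusted p = 0.000486) was alike in wild type (-1.49) and knockout (-1.47). Myc and Klf2 were named after their values were seen.

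Of 41 measured NF-kB and Toll-like receptor pathway genes 13 rose and 1 fell, 5 of the rises being moderate. Receptors and adaptors were among them: Tlr13 (1.85), the adaptor gene Myd88 (1.22) and the lipopolysaccharide co-receptor gene Cd14 (0.83, moderate). Myd88 read 8.24, 8.32 and 8.74 in SB and 9.34, 9.60 and 10.06 in VILI, without overlap. Downstream, the kinase genes Map3k8 (1.38) and Tbk1 (0.39, moderate) and the nuclear regulator gene Bcl3 (1.94) rose. Rela, which encodes an NF-kB subunit, rose by 0.41 with a call lost in 2 of 12 fits (up to 0.0530 without knockout VILI 2). The inhibitor gene Nfkbia was lower by 0.17, lost in 8 fits (up to 0.0846 without wild type SB 3). Tbk1, Rela and Nfkbia were named after their values were seen.

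Cytokine receptor genes gave 13 rises and 1 fall among 47 measured. The decoy receptor gene Il1r2 (3.99), Csf3r (2.43), Il18rap (2.24) and the feedback inhibitor gene Socs3 (2.02) led. Csf2rb, the common beta chain of several receptors, was a moderate rise of 1.09 (SE 0.24, adjusted p = 0.0124), and Stat3 rose by 0.51 (SE 0.06, adjusted p = 0.000709) with VILI arrays wholly above SB arrays. Stat6, which mediates interleukin-4 signals, was lower by 0.37, lost in 2 of 12 fits (up to 0.0551 without wild type SB 3). Csf2rb, Stat3 and Stat6 were named after their values were seen. Neutrophil markers moved with all these rises. Of 16 measured, 13 rose and 0 fell, their mean per array was 6.30 to 7.13 in SB and 8.29 to 9.88 in VILI, and their part in the other rises was not tested.

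BMP signalling genes were called in both directions, with falls the larger share. BMPs act through type I and type II receptors and SMAD proteins, and in lung endothelium this axis keeps vessels quiescent. Of 48 measured BMP and TGF-beta pathway genes 9 fell (18.8%, against 9.39% of all genes tested). Another 5 rose (10.4%), near the 8.42% over all genes. At the receptors, the endothelial type I receptor gene Acvrl1 fell by 0.77 (SE 0.16, adjusted p = 0.0105), its co-receptor endoglin, Eng, by 0.77 (SE 0.11, adjusted p = 0.00172), and the type II receptor gene Bmpr2 by 0.37 (SE 0.07, adjusted p = 0.00479). The ligand gene Bmp6 fell by 0.64. Bmpr2 and Bmp6 were moderate changes. Bmpr2 read 13.93, 14.13 and 14.23 in SB and 13.54, 13.79 and 13.92 in VILI, a small shift without overlap.

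Among targets and inhibitors of the same pathway, Smad6, Smad7 (-0.50) and Id1 (-0.82) fell, and Id3 was lower by 0.41 with a call lost in 8 of 12 fits (up to 0.0717 without wild type SB 3). The rises were Tgif1, a transcriptional repressor (1.12), Id2 (0.52), Tgfbr1, the TGF-beta type I receptor (0.47), Fstl3, which binds activins (0.49), and Smad1 (0.67). Smad1 lost its call in 3 fits (up to 0.0560 without wild type SB 3). Members beyond the 4 with the largest change (Smad6, Tgif1, Id1 and Eng) were named after their values were seen.

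**Figure D4:**
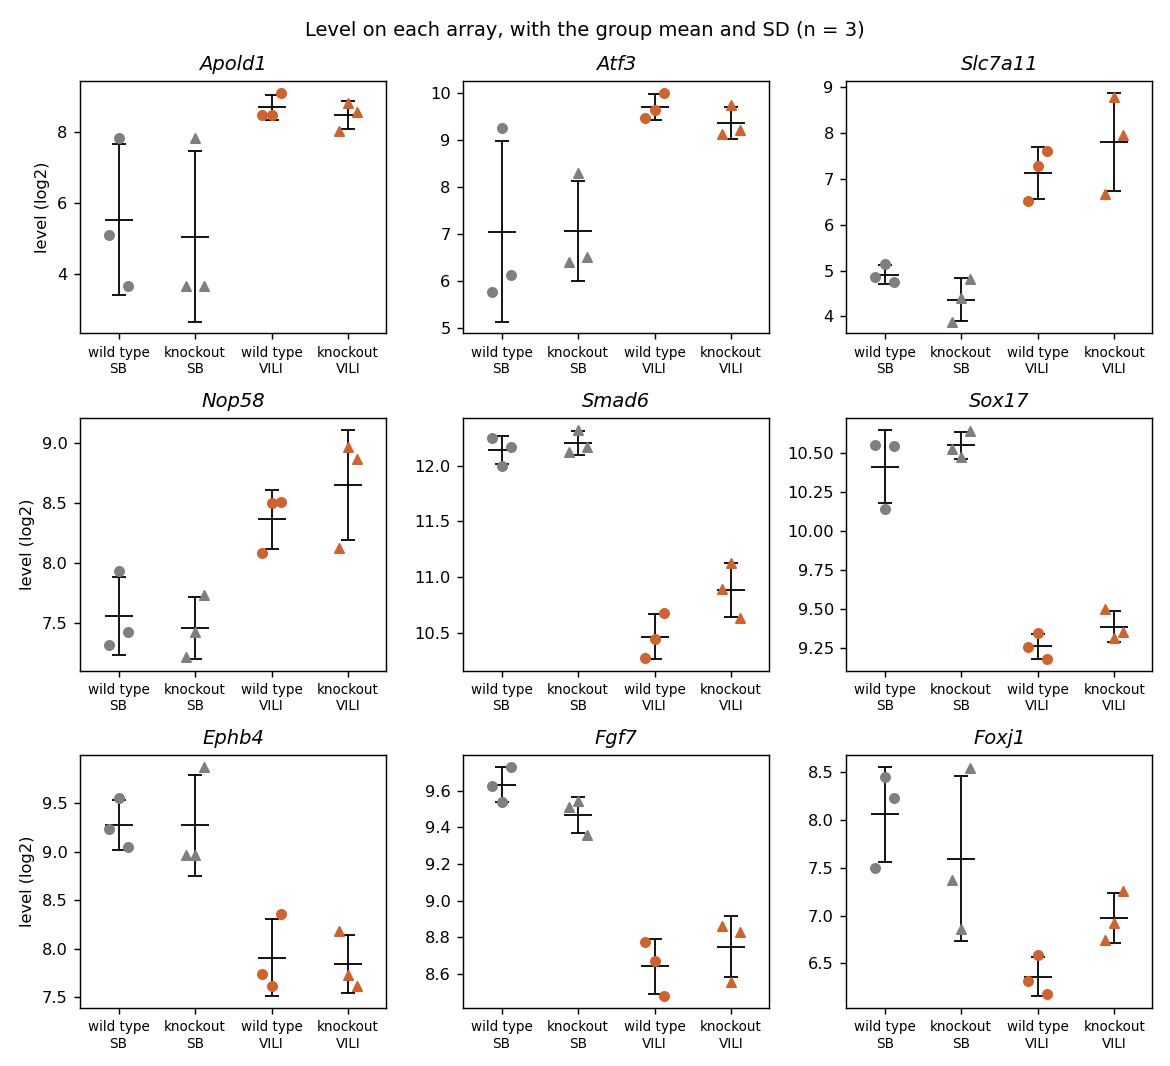
Level (log2) of 9 genes on each array by group; circles are wild type and triangles knockout arrays, grey SB and orange VILI, with the group mean and SD (n = 3). VILI and SB arrays are separate for Apold1, Slc7a11, Nop58, Smad6, Sox17, Ephb4 and Fgf7 and overlap for Atf3 and Foxj1.

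Of 36 measured endothelial markers 14 fell (38.9%, against 9.39% of all genes tested), 6 of them moderate changes, 1 rose and 21 were not called, with a median of -0.29. The mean over the 36 was 11.4 to 11.5 on the SB arrays and 10.7 to 11.2 on the VILI arrays, without overlap. Sox17, a transcription factor of arterial endothelium, read 10.14, 10.54 and 10.64 in SB and 9.18, 9.33 and 9.50 in VILI. It fell by 1.16 (SE 0.09, adjusted p = 5.1e-05), equally in wild type (-1.15) and knockout (-1.16). Clec14a, an endothelial surface lectin, fell by 0.95 and the angiopoietin receptor gene Tek by 0.67.

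Moderate endothelial falls included Kdr, the main VEGF receptor, and Pecam1, the junctional adhesion molecule. Kdr read 10.83, 11.21 and 11.63 in SB and 10.23, 10.64 and 11.01 in VILI, overlapping, with a fall of 0.62 (SE 0.13, adjusted p = 0.0114). Pecam1 fell by only 0.31 (SE 0.07, adjusted p = 0.0145), yet its SB arrays (12.37 to 12.53) lay above all its VILI arrays (11.89 to 12.27). Ramp2, a subunit of the adrenomedullin receptor, fell by 0.69. Sox18 was lower by 1.13 and lost its call in 5 of 12 fits without 1 array (up to 0.0633 without wild type SB 3). Nos3, endothelial nitric oxide synthase, at -0.63 lost it in 9 (up to 0.115 without wild type VILI 2). Lyve1, a marker of lymphatic endothelium, was the member that was higher, by 0.36, lost in 8 (up to 0.0909 without wild type VILI 2). Pecam1, Ramp2, Nos3 and Lyve1 were named after their values were seen.

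Of 24 measured VEGF, angiopoietin, PDGF and apelin genes, ligands and receptors of vessel growth, 9 fell, 0 rose and 15 were not called, and 7 of the falls were moderate. Vegfa, the growth factor made mainly by alveolar epithelium, read 12.28, 12.40 and 12.57 in SB and 11.83, 12.14 and 12.23 in VILI. It fell by 0.33 (SE 0.07, adjusted p = 0.00777), the same in each genotype (-0.33). Vegfc, the lymphatic growth factor gene, fell by 0.59, Angpt1, the ligand of Tek, by 0.52, and the co-receptor gene Nrp1 by 0.44. Nrp1 has 3 further probe sets, which ranged from -0.66 to 0.62. Vegfb at -0.82 lost its call in 4 of 12 fits (up to 0.0677 without wild type VILI 2), Angpt2 (-0.48) in 9 (up to 0.0887 without knockout VILI 2) and Pdgfd (-0.47) in 7 (up to 0.0838 without wild type VILI 2). With the median over each gene's probe sets, 5 members fell. Angpt1, Nrp1, Angpt2 and Pdgfd were named after their values were seen.

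FGF and Hedgehog signals pass between these layers during lung growth and repair. Of 19 measured members 7 fell (36.8%) and 0 rose. Among ligands, Fgf7, a mesenchymal growth factor for epithelium, read 9.36, 9.54 and 9.73 in SB and 8.48, 8.72 and 8.86 in VILI, and fell by 0.85 (SE 0.09, adjusted p = 0.000354). Among receptors, Fgfr4, Fgfr3 (-0.70), Fgfr2 (-0.64), which is the receptor of Fgf7, and Fgfrl1 (-0.50) fell. The Hedgehog receptor gene Ptch1 (-0.52) and the Hedgehog antagonist gene Hhip (-0.87), both induced by the pathway, fell with them. The count of 7 was never lower in the 12 fits without 1 array. Fgfr2, Fgfrl1 and Ptch1 were named after their values were seen.

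Wnt pathway genes gave 8 falls and 2 rises among 43. The receptor gene Fzd7 fell by 0.83 and the ligand gene Wnt3a, near the array medians, by 0.81. Fzd2 (-1.09), Rnf43 (-0.99), which removes Wnt receptors from the membrane, and Wnt5a (-0.70) lost their calls in 6, 3 and 5 of 12 fits (up to 0.0601 without wild type VILI 2, 0.0591 without wild type SB 3 and 0.0569 without knockout VILI 2). The rises, Fzd5 and Ror1, both 0.56, lost theirs in 9 and 5 (up to 0.0790 without knockout VILI 2 and 0.0732 without wild type VILI 2). The count of 8 falls was 4 without wild type SB 3 or knockout VILI 2, and 5 without wild type VILI 1 or wild type VILI 2. Notch genes gave 4 falls, all moderate, among 24: the ligand gene Jag2 (-0.72), the glycosyltransferase gene Mfng (-0.64), the feedback inhibitor gene Nrarp (-0.46) and Dtx3 (-0.81, lost in 9 fits, up to 0.110 without wild type VILI 2). The Notch gene that was higher was Dtx4 (0.32), lost in 8 fits (up to 0.0796 without wild type SB 3), and its other probe set was at -0.10. Wnt5a, Fzd5, Ror1 and Dtx4 were named after their values were seen.

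Guidance cues known from axon growth, which also pattern vessels and airways, gave 15 falls and 3 rises among 45, with 12 of the falls moderate. Ephb4, the receptor that marks veins, read 8.97, 9.14 and 9.88 in SB and 7.62, 7.74 and 8.36 in VILI. It fell by 1.40 (SE 0.20, adjusted p = 0.00157), with no array overlapping. Sema3g, an endothelial semaphorin, fell by 0.69, and the moderate falls included the semaphorin receptor gene Plxna1 (-0.65; 0.0502 without wild type SB 3). Sema4f at -0.91 lost its call in 7 of 12 fits (up to 0.0826 without wild type VILI 2) and the repellent gene Slit2 (-0.36) in 10 (up to 0.0868 without wild type VILI 2). The rises were Epha2, a receptor of injured epithelium (1.06; 2 fits, up to 0.0529 without wild type SB 3), Sema6d (0.73) and Plxna2 (0.70). The count of 15 falls rested on many arrays: it was 6 without wild type SB 3, wild type VILI 1 or wild type VILI 2, 7 without wild type SB 2 or knockout VILI 2, 8 without knockout SB 2 or knockout VILI 3, and 9 without knockout SB 1. Sema3g, Plxna1, Slit2 and Plxna2 were named after their values were seen.

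Of 156 homeobox, forkhead, GATA, SOX and T-box genes on the array, 56 passed the filter on low values. Among these 18 fell (32.1%) and 1 rose, with a median of -0.29, and 14 of the falls were moderate. Gata2, a factor of endothelium and mast cells, read 10.71, 10.99 and 11.65 in SB and 10.01, 10.27 and 10.51 in VILI, and fell by 0.80 (SE 0.14, adjusted p = 0.00493) without overlap. Moderate falls that held in all 12 fits without 1 array included Six5, Hoxb5 (-0.82) and Hoxa5 (-0.60), homeobox genes of lung mesenchyme. Nkx2-1, the factor that specifies lung epithelium, was lower by 0.78 and lost its call in 7 fits (up to 0.0756 without wild type SB 2). Foxf2 (-0.75) lost it in 7 (up to 0.0686 without wild type VILI 2) and Tbx4 (-0.39) in 9 (up to 0.0955 without wild type SB 3). Foxn2 was the member that was higher (0.25; lost in 4, up to 0.0600 without knockout VILI 2). The count of 18 was 11 without wild type VILI 1, wild type VILI 2 or knockout VILI 3. Hoxb5, Hoxa5, Foxf2, Tbx4 and Foxn2 were named after their values were seen.

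**Figure D5:**
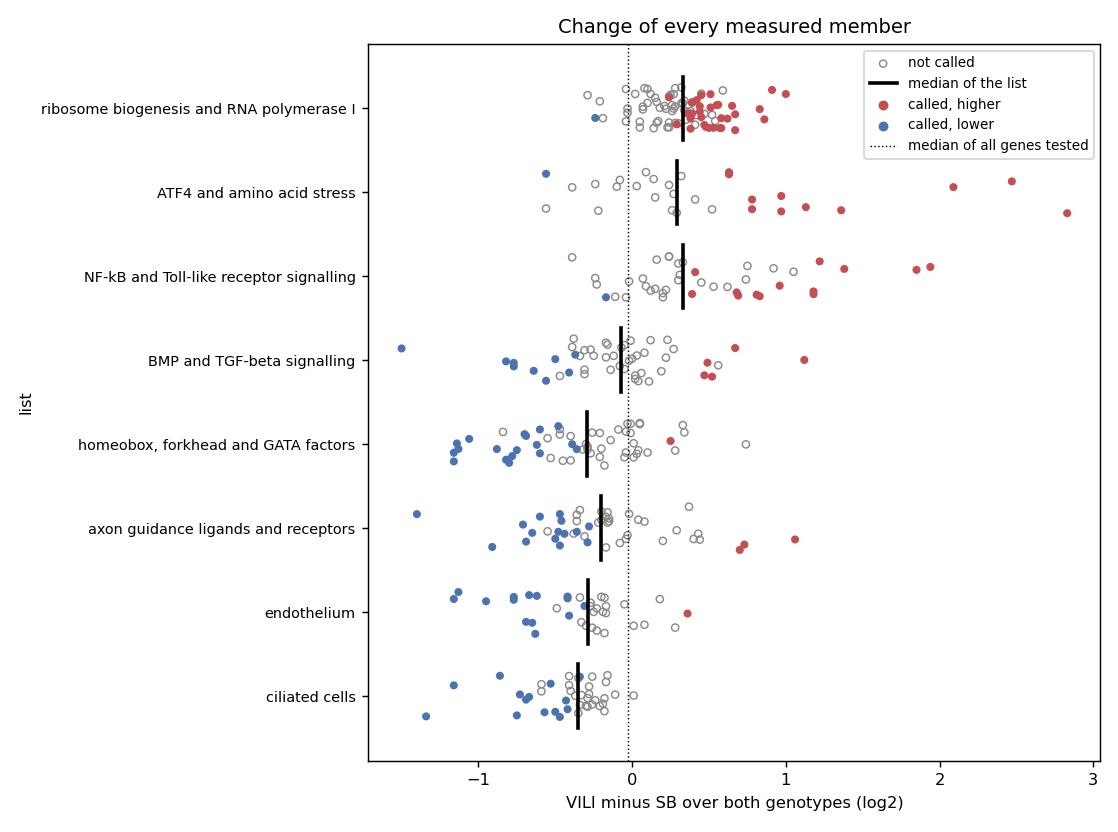
Change between VILI and SB over both genotypes (log2) of every measured member of 8 lists; filled red and blue points were called higher and lower, open points were not called, thick bars mark list medians and the dotted line the median of all genes tested. The medians of ribosome biogenesis, ATF4 and NF-kB lists lie near 0.3 above zero, and those of the endothelial, ciliated and homeobox lists lie near the same distance below it.

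Of 40 measured motile cilia genes 14 fell, 10 of them moderate, 0 rose and 26 were not called. The list median was -0.35, -0.55 in wild type and -0.17 in knockout, a difference that was not tested. Foxj1, the master regulator of motile cilia, read 6.86, 7.86 and 8.55 in SB and 6.18, 6.66 and 7.26 in VILI, overlapping, and fell by 1.16 (SE 0.27, adjusted p = 0.0141). Rsph4a, a radial spoke protein gene, fell by 0.86 without overlap, Rfx3, a ciliogenesis factor gene, by 0.73, and the axonemal assembly gene Zmynd10 by 0.75. Tekt4, a tektin, was lower by 1.34 at levels near the array medians. The outer dynein arm gene Dnah5 (-0.53) lost its call in 7 of 12 fits (up to 0.0748 without wild type VILI 2). The count of 14 was 9 without wild type SB 2, wild type SB 3, wild type VILI 1 or wild type VILI 2. The mean over the 40 genes was 7.37 to 8.00 on SB arrays and 7.03 to 7.47 on VILI arrays, with a small overlap. Rfx3 and Dnah5 were named after their values were seen.

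Most epithelial markers were not called. Falls made up 21.1% of club and goblet, 22.2% of type II and 22.2% of type I markers, against 9.39% of all genes tested. They included small falls of the secretory genes Scgb1a1 and Sftpc. Scgb1a1, the club cell secretory protein, read 15.67, 15.80 and 15.86 in SB and 15.52, 15.59 and 15.65 in VILI. Its fall of 0.20 (SE 0.04, adjusted p = 0.0107) was the same in each genotype within rounding (-0.19 and -0.21), with no overlap. Sftpc, surfactant protein C, fell by 0.20 (SE 0.05, adjusted p = 0.0130), also without overlap. Both values lie near the top of the array scale, where probe sets may respond less than in proportion, and both genes were named after their values were seen. Of 19 club and goblet cell markers 4 fell and 1 rose (Nupr1), and 7 fell without knockout VILI 1. Of 18 type II markers 4 fell and 1 rose (Lrg1, 0.90), and of 18 type I markers 4 fell and 0 rose, led by Rtkn2 (-1.10). Leaving out 1 array gave 2 to 7 falls in either alveolar list. There were 7 without knockout VILI 1 in each. For type II markers there were 2 without wild type SB 2, wild type SB 3, knockout SB 1, knockout SB 3, wild type VILI 1, wild type VILI 3 or knockout VILI 3, and for type I markers 2 without wild type VILI 2, wild type VILI 3 or knockout VILI 2. Among 15 smooth muscle markers 4 fell: Hhip, the actin-binding Tagln (-0.41), Acta2 (-0.40, lost in 2 of 12 fits, up to 0.0523 without knockout VILI 2) and Mylk, myosin light chain kinase (-0.32).

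Among metabolic enzymes, of 45 genes of fatty acid oxidation and peroxisomes 9 fell (20%) and 0 rose, the falls from -0.21 to -0.63, 7 of them moderate. Acadm, the medium-chain acyl-CoA dehydrogenase, read 10.63, 10.73 and 11.01 in SB and 10.16, 10.27 and 10.63 in VILI and fell by 0.46 (SE 0.09, adjusted p = 0.00902). Acot1 fell by 0.63, and Pex6 (-0.51) and Hadh (-0.40) each lost their calls in 4 of 12 fits (up to 0.0601 and 0.0643, without wild type VILI 2). The count of 9 was 2 without wild type VILI 2, 3 without knockout SB 1, 4 without wild type VILI 1 or knockout VILI 2, and 5 without wild type SB 2, wild type SB 3 or wild type VILI 3. Acadm and Hadh were named after their values were seen. The respiratory chain gave 4 falls (4.6%) and 1 rise (1.15%) among 87, below the shares over all genes, and 0 to 6 falls in the fits without 1 array (0 without wild type SB 2, wild type VILI 2 or knockout VILI 2).

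Clock genes were called in both directions. The positive limb of the clock (Arntl) and its output activators peak at opposite times of day, and the hour of collection is not given in the sources used here. Of 21 measured genes 7 fell and 3 rose. Dbp (-2.09), Per3 (-1.71), Ciart (-1.58) and Nr1d2 (-0.44) fell in all 12 fits without 1 array. Moderate changes were Usp2 (-0.46), Nr1d1 (-1.04, lost in 4 fits, up to 0.0590 without knockout VILI 2), Tef (-0.69, lost in 8, up to 0.0625 without knockout SB 1) and the 3 rises. Those were Nfil3 (2.37, lost in 9, up to 0.0686 without wild type SB 3), Arntl (1.38, lost in 8, up to 0.0795 without wild type SB 3) and Cry1 (0.47, lost in 8, up to 0.0774 without knockout VILI 2). Nfil3 read 4.15, 4.96 and 8.35 in SB and 6.96, 8.25 and 8.72 in VILI, and SB array 2 of each genotype held the high SB values. Usp2, Tef, Arntl and Cry1 were named after their values were seen.

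The promoter of Ciart, the clock gene with the smallest p, is shown because it held the E-box CACGTG 3 times. The E-box was in 3 of 10 windows of called clock genes, in 3 of 10 of called immediate early genes and in 8.47% of all windows, so the share was not particular to the clock list. It lies at chr3:95882229-95882368, minus strand (RefSeq, GRCm38.p6), with the motif in capitals and the last base adjoining the start. Only the letters are shown by a match.
Ciart: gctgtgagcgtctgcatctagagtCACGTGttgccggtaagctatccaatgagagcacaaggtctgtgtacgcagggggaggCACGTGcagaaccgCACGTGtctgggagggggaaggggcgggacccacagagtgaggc

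Some lists had no calls or few. Of 17 measured genes of MHC class II and antigen presentation, 10 B cell, 9 T and NK cell, 4 dendritic cell and 17 heart and skeletal muscle markers, 0 were called in either direction. A missed threshold does not show equal levels, and B cell markers averaged 9.32 and 9.90 on the knockout arrays numbered 3 (SB and VILI) against 5.36 to 7.14 on the other 10. With both of those arrays left out, 1631 genes were called (768 higher, 863 lower). Of 17 monocyte and macrophage markers 3 rose, all moderate: Ccr2 (1.35), Cd14 and C1qb (0.57), of which Ccr2 and C1qb lost their calls in 9 and 8 of 12 fits (up to 0.108 without wild type VILI 2 and 0.0759 without wild type VILI 1). Autophagy and lysosome genes gave 1 rise and 3 falls among 44.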

How the data were processed

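RNA from whole lung was measured on 12 Affymetrix arrays, 3 in each of the 4 groups. The deposited log2 values were used as the authors gave them. MAS5 and GCRMA are the tools listed in the submitters' processing notes, with no version and no role. Array medians were 4.36 to 4.58. Precision depends on how many arrays there are and on each gene's spread between them. Nothing in the labels says whether replicates came from separate batches.

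Of 45037 probe sets other than controls, 34945 had 1 gene symbol in the platform annotation, 932 several and 9160 none. Probe sets above the array's own median on 3 or more of 12 arrays entered, and the brightest of them stood for its gene, which gave 10996 genes. limma 3.58.1 in R 4.3.3 fitted the 4 group means with a mean-variance trend (8 residual degrees of freedom). The common contrast was the mean of the VILI minus SB differences of both genotypes, with Benjamini-Hochberg adjustment and a threshold of 0.05. On simulated data, 52.5% of 40 genes raised by 0.5, 92.5% of those raised by 1 and 55% of those lowered by 0.5 were recovered, and 4.88% of calls were false. The simulation changed 40 genes of each size among 10996 and drew errors independently between arrays. In the real data many more genes were called and some arrays deviated together. The 4.88% therefore does not give the error rate of the reported calls.

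Genes were named by rule: the 15 largest moderate rises and falls separated within both genotypes, the 8 smallest p in each direction, and up to 4 called members of a list. The members and lists were chosen with earlier results of these data known. Promoter windows were the 250 bases before the start. The alternatives tried are given in the closing section.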

Additional observations from a re-analysis of the deposited data

Results flagged for a closer look

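Probe sets without exactly 1 gene symbol took no part in the comparisons above, apart from the setting with every kept probe set. Of 3424 that passed the filter on low values, 459 were called for VILI against SB over both genotypes (13.4%). Those higher made up 9.81% of the 3424 and those lower 3.59%. These calls come from the setting with every kept probe set. In that setting 2654 of 19658 probe sets with 1 symbol were called, 1431 of them higher. The 8.42% and 9.39% of named genes rest on the brightest probe set per gene and are not a like comparison. Their signal is data outside the main measurement, which is why they are listed.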

How the results depend on the processing

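The common total of 1958 genes stayed within 1.5 times under the additive model (2134), median-centred arrays (1960), quantile normalization (2195), no filter (1893), a stricter filter (1942), a floor (1945), the median over probe sets (1718) and no mean-variance trend (1860). Every kept probe set gave 3113 calls, 1767 of them higher and 1287 of those moderate, over more features. Array weights gave 3174 calls with 1797 lower (565 falls and 445 rises moderate); the cause was not tested. With fewer arrays and their own spread, wild type arrays alone gave 475 calls (215 higher, 260 lower) and knockout arrays alone 11 (8 higher, 3 lower), so the call within a genotype depends on the spread pooled over the 12 arrays. Leaving out 1 array gave 1128 to 2084 calls, 552 to 911 higher, 576 to 1173 lower, 348 to 604 moderate rises and 463 to 786 moderate falls. With the replicate number as a replicate block 2307 genes were called (1112 higher, 1195 lower), but arrays sharing a number did not deviate together throughout (correlations -0.163 to 0.526). The same-number SB arrays of wild type and knockout did (0.231, 0.526 and 0.318, against -0.446 to 0.0781 for different numbers), a hint from the data and not the design. The main fit took all arrays as independent. If SB arrays share deviations across genotypes, its p-values for the common contrast may be too small, which was not tested. The interaction called 0 genes with limma in every setting run. Of 323 named and called genes 218 kept their call in all 12 fits without 1 array. Of the 1958 calls, 18 turned sign with the median over probe sets, 31 at the gene's first listed probe set, 2 in wild type alone and 1 in knockout alone, and 0 in the other settings. Among named genes, signs turned for the heat shock protein gene Hspa4 (-0.08, median over probe sets; the cause was not tested), Calml4 (0.01, knockout alone), Gclm (-0.04) and Lrmda (-0.33, both wild type alone). Genes below the array medians have approximate sizes.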

Other observations

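Oxidative stress genes were not described above. Of 39 measured glutathione, thioredoxin and NRF2 target genes 12 rose and 3 fell, and 10 to 12 rose in the fits without 1 array. Hmox1, heme oxygenase 1, read 7.33, 7.66 and 8.16 in SB (lowest, median, highest) and 8.80, 9.48 and 11.74 in VILI, and rose by 2.16. The sulfiredoxin gene Srxn1 rose by 1.92, and the metallothionein genes Mt1 and Mt2, which bind zinc, by 1.89 and 2.28. All VILI arrays lay above all SB arrays for these 4 genes. The thioredoxin inhibitor gene Txnip went the other way, from 13.78, 13.91 and 14.33 to 13.11, 13.31 and 13.41, a fall of 0.72. Catalase (Cat, -0.27) and the peroxiredoxin gene Prdx2 (-0.24) were lower, each with a call lost in 9 of 12 fits (adjusted p up to 0.0886 without wild type SB 3 and 0.0736 without wild type VILI 2). Txnip, Cat and Prdx2 were named after their values were seen.

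Genes that set vascular tone gave 6 falls (20%) and 3 rises (10%) among 30, against 9.39% and 8.42% of all genes tested. Edn1, the vasoconstrictor endothelin 1, read 10.42, 10.89 and 11.94 in SB and 9.30, 9.73 and 9.95 in VILI, and fell by 1.30 without overlap. The vasodilator peptide gene Adm rose by 1.58, while both parts of its receptor, Calcrl (-0.65) and Ramp2 (-0.69), were lower. Calcrl and Ramp2 were named after their values were seen. The prostaglandin synthase gene Ptgs2 rose by 2.56 and the prostaglandin receptor gene Ptger4 by 1.11. The VILI and SB arrays overlapped for Ptgs2 and Adm and not for Ptger4. Of 38 cell cycle genes 0 rose and 3 fell (7.89%, below the 9.39% over all genes): Cdkn2c, Cdk4 (-0.32) and Rb1 (-0.32).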
